A study of Mus musculus with 8 samples.

Results

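The interleukin 1 family of secreted cytokines and their receptors was described in neutrophils from inflamed mouse air pouches, with Arf6, a small GTPase of membrane traffic, deleted or left in place. All probe sets whose platform annotation gave 1 gene symbol from a list of 10 names were taken, and these were 11 of the 34472 probe sets on the array. They stand for 9 genes, because Il36g is listed on the platform under its older symbol Il1f9 and Il1rap has 3 probe sets. The agonists are Il1a, Il1b, Il18 and Il1f9, the secreted antagonist is Il1rn, and the receptor chains are Il1r1, Il1r2, Il1rap and Il18rap.

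Interleukin 1 alpha and interleukin 1 beta bind the same receptor, IL1R1, which pairs with the accessory chain encoded by Il1rap and signals through MyD88 and IRAK kinases to NF-kB and the MAP kinases. The antagonist encoded by Il1rn occupies IL1R1 without recruiting the accessory chain, and IL1R2 is a decoy that binds ligand but lacks a signalling domain. IL-1 beta and IL-18 are made as precursors that caspase-1 cuts inside inflammasomes, whereas the IL-1 alpha precursor is already active. Neutrophils that enter inflamed tissue are a known source of IL-1 beta, of the antagonist and of the decoy receptor.

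The cells had migrated into air pouches under the skin after an injection of lipopolysaccharide (LPS), the bacterial membrane component that activates TLR4. Pouch leucocytes were purified by negative selection, and the labels describe the suspensions as almost entirely Ly6G positive. Each array held RNA of 1 pool of 5 mice. There were 3 arrays of Arf6 conditional knockout cells (cKO, genotype flox+/+Cre+/+), 3 of a control with the floxed allele and no Cre (flox control, flox+/+Cre-/-), and 2 of a control with Cre and no floxed allele (Cre control, flox-/-Cre+/+). The design states 3 pools per genotype, and the other Cre control pool was not analysed here. All groups received LPS, so no value is a response to it. The promoter that drives Cre, the strain, the age of the mice, the dose of LPS and its duration are not stated in the labels. P-values set the differences against the spread between these pools, moderated with the spread over all probe sets tested.

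The source label of every sample contradicted its title and genotype, and groups were taken from the genotype. One Arf6 probe set read 6.06 to 6.49 in the cKO arrays and 7.68 to 8.20 in the 5 control arrays (log2), a difference of -1.67 ± 0.15 (SE, limma adjusted p = 0.0122), while the other Arf6 probe set differed by -0.15 (adjusted p = 0.816). That call, which sets the cKO against both controls, did not hold without flox control 2, Cre control 1 or Cre control 2, nor without flox control 1 and cKO 1 together. A pair of pools stood apart in sex-linked transcripts. Xist was lowest in flox control 1 (5.46, against 7.84 or more elsewhere) and Eif2s3y was lowest in cKO 1 (4.08, against 8.66 or more elsewhere). A filter for dim probe sets asked for at least 2 arrays above 5.45, the median over all arrays and probe sets, and all 18 neutrophil markers measured passed it. Their list mean ran from 11.93 to 12.14 in the flox control, from 11.79 to 11.998 in the cKO and from 11.70 to 11.73 in the Cre control. The 14 macrophage and monocyte markers were also all above the filter, with list means of 8.58 to 8.93, 8.72 to 8.89 and 8.996 to 9.02 in the same order. These markers differed widely in level, with means over the arrays from 6.12 (Ms4a7) and 6.16 (Mertk) to 12.52 (Cd68) and 12.67 (Lyz2). Of 12 T and NK cell markers 9 were above the filter, with list means of 5.81 to 6.03, 6.08 to 6.32 and 6.38 to 6.54. Of 10 dendritic cell and class II markers 9 were above it, with list means of 7.57 to 7.76, 7.77 to 7.98 and 7.77 to 7.84. Of 5 eosinophil markers 4 were above it (Ccr3 and Siglecf among them, but not Epx), with list means of 6.33 to 6.70, 6.59 to 7.18 and 6.66 to 7.31. Of 8 fibroblast markers of the pouch wall 6 were above it, with list means of 5.96 to 6.70, 5.88 to 6.82 and 5.60 to 6.60. Above the filter were also 2 of 5 B cell markers (Cd79b and Pax5, but not Ms4a1, Cd79a or Blk), with list means of 4.92 to 5.11 over the arrays. Of 7 mast cell and basophil markers 2 were above it (Kit at 7.54 to 8.28 and Tpsb2, but not Cpa3 or Mcpt8), with list means of 4.76 to 4.97. Of 5 keratinocyte markers 3 were above it (Krt1, Krt10 and Dsp, but not Krt14 or Trp63), with list means of 5.21 to 5.42. Fewer cells of a type and less RNA per cell cannot be told apart in such pools, and the part of these cell types in the results was not tested.

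The sequence before the transcription start is shown for Il1a, Il1b and Il1f9. The choice was made after the values were seen. Il1a separated the cKO from both control groups, while Il1b, Il1f9 and the other family genes did not. All 9 genes matched RefSeq, which gave 12 start sites. The windows below hold the 250 bases before a start in GRCm38.p6, written 5′ to 3′ in the direction of transcription, with matches to the searched motifs in capitals. Il1a lies on the minus strand at chr2:129309973-129310222, Il1b on the minus strand at chr2:129371140-129371389 and Il1f9 on the plus strand at chr2:24186226-24186475.
Il1a: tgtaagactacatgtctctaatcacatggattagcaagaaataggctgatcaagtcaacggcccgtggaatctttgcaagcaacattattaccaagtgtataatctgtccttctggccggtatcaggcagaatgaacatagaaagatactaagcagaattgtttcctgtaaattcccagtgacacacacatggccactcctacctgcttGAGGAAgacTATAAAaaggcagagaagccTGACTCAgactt
Il1b: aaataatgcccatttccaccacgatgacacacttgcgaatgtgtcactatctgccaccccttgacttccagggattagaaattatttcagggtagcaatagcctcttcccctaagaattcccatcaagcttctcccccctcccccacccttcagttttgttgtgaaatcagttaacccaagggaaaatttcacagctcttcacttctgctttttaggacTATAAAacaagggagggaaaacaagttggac
Il1f9: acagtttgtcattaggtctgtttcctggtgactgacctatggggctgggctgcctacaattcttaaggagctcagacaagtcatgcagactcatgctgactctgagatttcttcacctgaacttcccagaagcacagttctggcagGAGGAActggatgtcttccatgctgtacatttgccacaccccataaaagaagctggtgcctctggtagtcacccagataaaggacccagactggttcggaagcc

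The motifs searched on both strands were the TATA box TATAAA, the AP-1 site TGANTCA and the PU.1 core GAGGAA. Each was present in 12.4%, 6.75% and 23.3%, in that order, of 32841 RefSeq promoter windows of that length. The Il1a window held TATAAA at 32 to 27 bases before the start, TGACTCA at 12 to 6 bases and GAGGAA at 41 to 36 bases. The Il1b window held TATAAA at 31 to 26 bases before the start, and the Il1f9 window held GAGGAA at 104 to 99 bases. Among the other 9 windows, TGANTCA also matched in 1 window of Il1rn. For Il1rn the cKO arrays overlapped the flox control and lay below the Cre control. In the window of Il18, TATAAA matched on the strand opposite to transcription, at 175 to 170 bases before the start. GAGGAA matched at 2 places in that of Il18rap. No match overlapped another. These are matches of letters, and binding was not measured. A link between any of these motifs and the differences between groups was not tested.

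**Figure D1:**
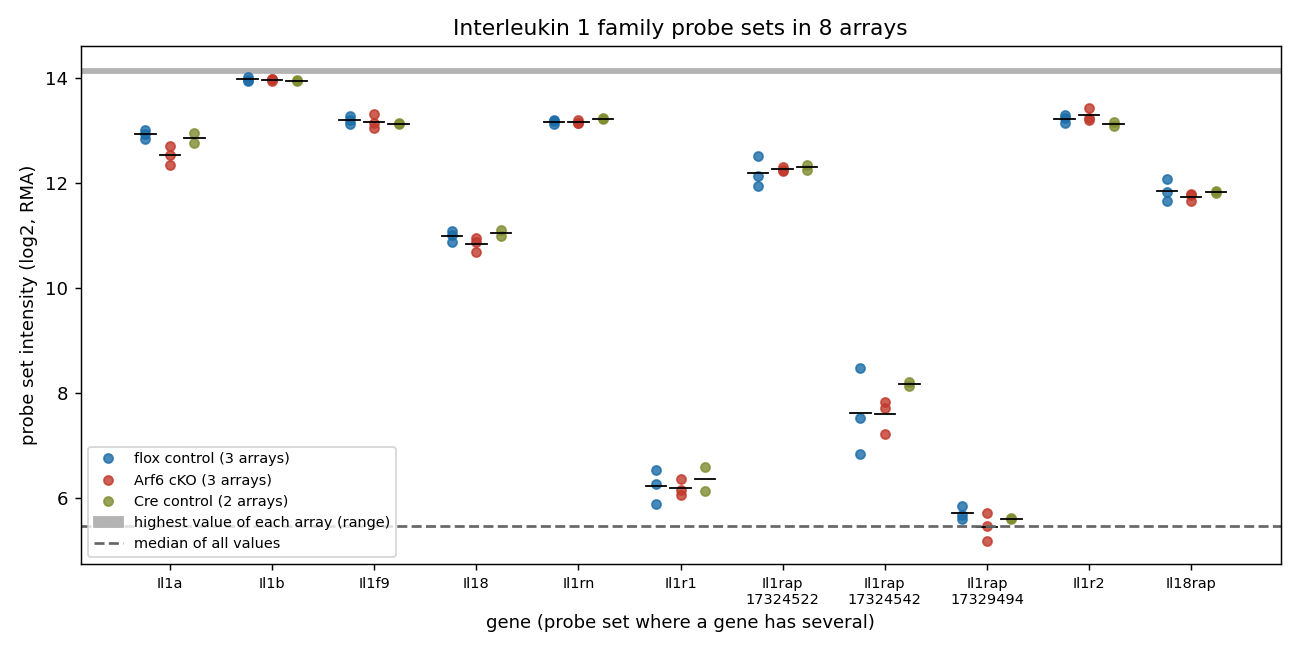
Probe set intensity (log2, RMA) of the 11 family probe sets in 8 arrays, with 1 point per array, coloured by group, a black bar at each group mean, a grey band at the highest value of each array (14.10 to 14.17) and a dashed line at the median of all values (5.45). Il1b lies beside the band in every array, and the Il1a points of the cKO lie below those of both controls.

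Among the agonists, Il1b was one of the brightest probe sets on the arrays, and Il1a was the member whose 3 cKO arrays all lay below all 5 control arrays. No family probe set passed the threshold in any comparison. The deposited values are log2 intensities, and limma was run over 14002 probe sets with Benjamini-Hochberg adjustment and a threshold of 0.05. Adjusted p under 0.05 was met by 0.00714% of the probe sets tested in the cKO against both controls, by 0.0429% against the flox control, by 0.0714% against the Cre control and by 0.486% between the Cre and flox controls. It was met by 0 of the 11 family probe sets in each of these.

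Il1a encodes the agonist that needs no cutting. It was at 12.94, 12.85 and 13.02 in flox pools, at 12.35, 12.55 and 12.71 in cKO pools and at 12.95 and 12.77 in Cre pools. The cKO arrays were the 3 lowest, and the gap between the highest cKO array and the lowest control array was 0.06. The group means were 12.94 ± 0.08 (SD, n = 3), 12.54 ± 0.18 (n = 3) and 12.86 ± 0.13 (n = 2). The difference of the cKO from both controls was -0.36 ± 0.12 (SE) with a 95% interval of -0.62 to -0.11, which is a 1.29-fold lower signal (limma adjusted p = 0.389). Against the flox control it was -0.40 (interval -0.69 to -0.12, adjusted p = 0.454) and against the Cre control -0.33 (interval -0.65 to -0.01, adjusted p = 0.359). The control groups differed from each other by -0.08 ± 0.14 (adjusted p = 0.859). The cKO comparisons all use the same 3 cKO arrays, and several of these contrasts share control arrays, so they are not independent. Il1a was singled out after its values were seen. Without flox control 1 and cKO 1 it differed from both controls by -0.27. Without cKO 1 alone the difference was also -0.27, and without flox control 1 alone it was -0.36. All 3 cKO arrays lay below all 5 controls in 2.25% of the probe sets tested, and 4.36% separated completely in either direction. Of the 11 family probe sets 1 met the first pattern and 1 the second.

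Il1b was near the top of the scale. It was at 13.95, 13.98 and 14.04 in flox pools, at 13.96, 13.99 and 13.99 in cKO pools and at 13.96 and 13.95 in Cre pools. All 8 arrays lay within 0.09 of each other, and they were 0.07 to 0.18 below the highest value of the same array. The difference from both controls was 0.01 ± 0.09 (interval -0.19 to 0.21, adjusted p = 0.991). Its spread within groups (SD 0.03) stood at the 0.12 percentile of the probe sets tested. The limma moderation raises so low a spread, and with a variance trend the SE of the difference was 0.05. Among the 72 probe sets with a mean of at least 13 the median SD was 0.08. Of these, 3 had an SD at or below that of Il1b, with Il1b itself counted. How much of a difference the arrays can register this close to their highest value was not tested.

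Il1f9, which encodes interleukin 36 gamma, an agonist of the IL-36 receptor, was at 13.13, 13.21 and 13.28 in flox pools, at 13.05, 13.32 and 13.15 in cKO pools and at 13.13 and 13.14 in Cre pools. The groups overlapped, and the difference from both controls was 0.00 ± 0.10 (interval -0.23 to 0.23). These values were 0.83 to 1.07 below the array maximum. Il18, which encodes a ligand that prompts interferon gamma from T and NK cells, was at 11.10, 10.88 and 11.01 in flox pools, at 10.69, 10.96 and 10.88 in cKO pools and at 11.10 and 10.99 in Cre pools. The cKO arrays overlapped the flox control and lay below both Cre control arrays, and the difference from both controls was -0.17 ± 0.11 (interval -0.42 to 0.07, adjusted p = 0.67).

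**Figure D2:**
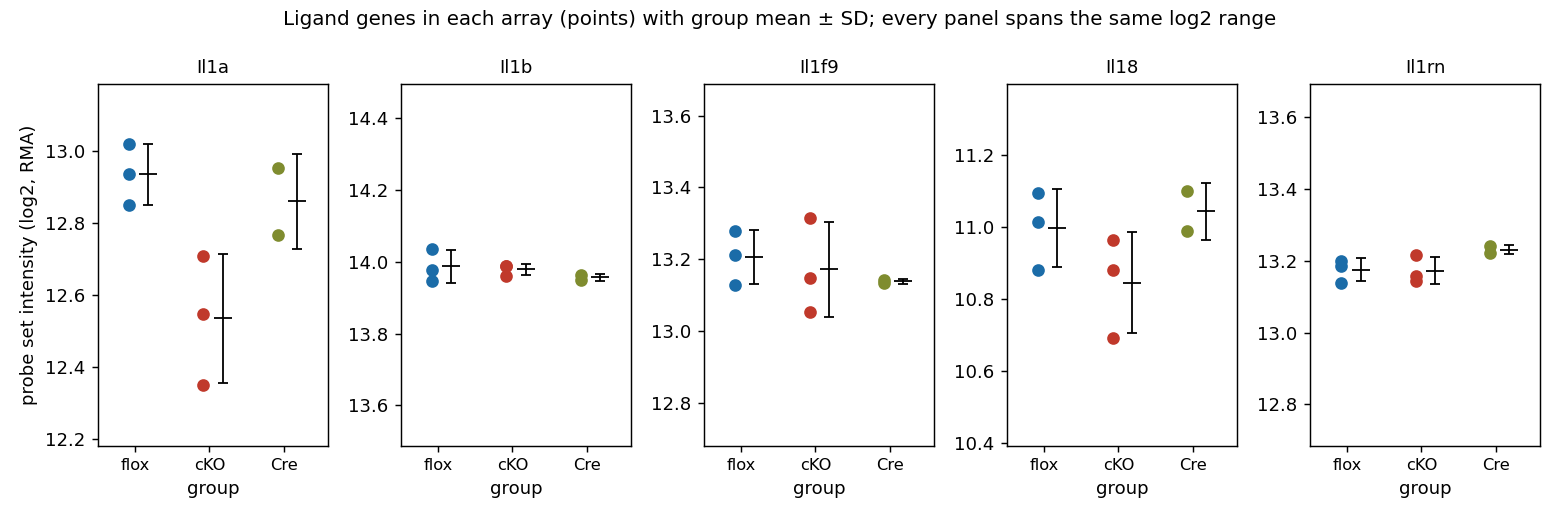
Probe set intensity (log2, RMA) of Il1a, Il1b, Il1f9, Il18 and Il1rn by group, with 1 point per array, the group mean ± SD beside the points and the same log2 span in every panel. The 3 cKO points of Il1a lie below its 5 control points, and the cKO points of the other genes overlap those of at least 1 control group.

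The antagonist gene Il1rn had a spread close to that of Il1b. It was at 13.20, 13.14 and 13.19 in flox pools, at 13.16, 13.14 and 13.21 in cKO pools and at 13.24 and 13.22 in Cre pools. The 8 arrays spanned 0.10, and the difference from both controls was -0.03 ± 0.09 (interval -0.23 to 0.17, adjusted p = 0.956). The cKO overlapped the flox control and lay below the Cre control. The Cre control arrays lay above the flox control arrays, by 0.06 on average, and this was the 1 family probe set that separated those groups, against 32.7% of the probe sets tested. The SD within groups was 0.03, and 4 of the 72 brightest probe sets had an SD at or below it, with Il1rn itself and Il1b counted.

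Of the receptor chains, none passed a test. The decoy gene Il1r2 was at 13.15, 13.24 and 13.30 in flox pools, at 13.20, 13.43 and 13.25 in cKO pools and at 13.10 and 13.17 in Cre pools. The cKO overlapped the flox control and lay above the Cre control, with a difference from both controls of 0.11 ± 0.10 (interval -0.11 to 0.34, adjusted p = 0.791). Il1r1 was at 5.88, 6.26 and 6.54 in flox pools, at 6.36, 6.15 and 6.05 in cKO pools and at 6.59 and 6.12 in Cre pools. The groups overlapped, with a difference of -0.10 ± 0.17 (interval -0.48 to 0.28), and the values stood at the 60.9 to 74.2 percentile of each array.

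Il1rap encodes the accessory chain shared by the receptors for IL-1 and IL-36. Its 3 probe sets differed in level, with means of 12.25, 7.74 and 5.58 over the arrays, in the order below. The SD within groups was 0.19, 0.56 and 0.19 in the same order. The platform annotation used does not say which part of the gene each reads. Probe set 17324522 was at 11.94, 12.13 and 12.52 in flox pools, at 12.31, 12.24 and 12.24 in cKO pools and at 12.25 and 12.36 in Cre pools. Its difference from both controls was 0.01 ± 0.13, and the groups overlapped. Probe set 17324542 was at 6.84, 7.52 and 8.48 in flox pools, at 7.72, 7.22 and 7.83 in cKO pools and at 8.14 and 8.21 in Cre pools. It spanned 1.64 over the arrays and had an SD within groups of 0.56, at the 98.7 percentile of the probe sets tested. The flox control held both its lowest and its highest array, and the difference from both controls was -0.30 ± 0.31 (interval -0.996 to 0.39). The difference of this probe set from the flox control was -0.02, and without flox control 3 it was 0.41. Probe set 17329494 was at 5.66, 5.84 and 5.60 in flox pools, at 5.18, 5.46 and 5.71 in cKO pools and at 5.58 and 5.62 in Cre pools, and its difference from both controls was -0.20 ± 0.13. It stood above the filter value of 5.45 in 7 arrays, and cKO 1 lay below that value.

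Il18rap, the accessory chain of the IL-18 receptor, was at 11.65, 11.84 and 12.07 in flox pools, at 11.67, 11.79 and 11.77 in cKO pools and at 11.86 and 11.81 in Cre pools. The cKO overlapped the flox control and lay below the Cre control, and the difference from both controls was -0.10 ± 0.12. Among the 8 arrays, flox control 1 was the lowest array for 5 of the 11 family probe sets, and flox control 3 was the highest for 5.

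**Figure D3:**
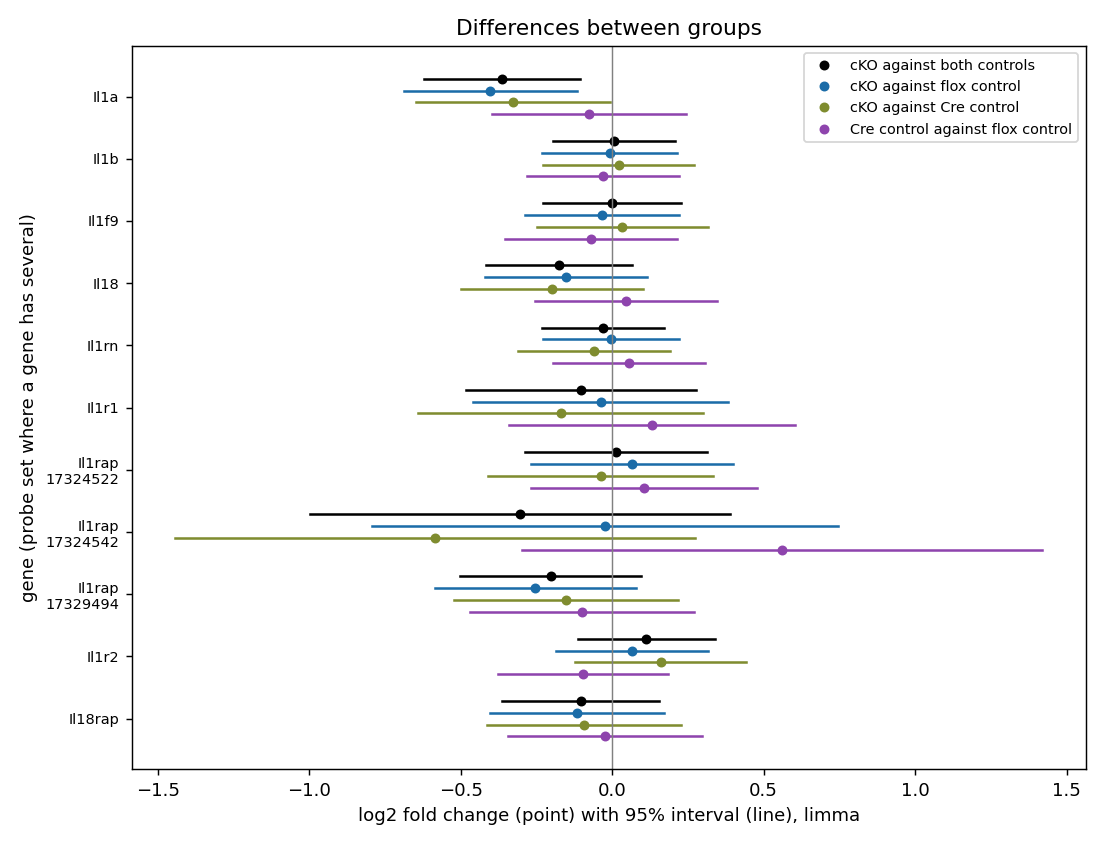
Log2 fold change of each family probe set in 4 comparisons (points) with the 95% limma interval (lines). The interval of Il1a lies below 0 in the 3 cKO comparisons, those of the other family probe sets include 0, and the Il1rap probe set 17324542 has the widest.

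Over the 11 probe sets, 7 were lower and 4 higher in the cKO than in both controls, with a median of -0.10 beside 0.01 for all probe sets tested. The median size of the difference was 0.10 for the family and 0.11 for all. An unadjusted p under 0.05 was reached by 1 of 11 in each cKO comparison (Il1a each time), beside 9.52% of the probe sets tested against both controls, 8.26% against the flox control and 13.5% against the Cre control. Between the controls it was reached by 0 of 11, beside 14.7%. Groups that did not overlap were found for 1 of 11 in the cKO against the flox control, beside 12.2%, and for 6 of 11 in the cKO against the Cre control, of which 5 were lower, beside 34.4%. With 2 Cre control arrays complete separation is common. The 95% intervals in the cKO against both controls lay within 1.5-fold for 9 of the 11, and within 2-fold for 11 of the 11. Il1b lay 0.07 to 0.18 below the array maximum, Il1r2, Il1f9 and Il1rn 0.74 to 1.07 below it, and Il1a 1.08 to 1.78 below it. Il1rap probe set 17329494 lay near the filter value of 5.45. How far either end of the scale narrows these intervals was not tested.

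Of the wider lists, 5 family ligands outside the members were measured and 3 were above the filter. Il1f6, which encodes interleukin 36 alpha, was at 7.90, 7.55 and 7.36 in flox pools, at 6.26, 6.39 and 6.91 in cKO pools and at 7.10 and 6.56 in Cre pools. The cKO arrays lay below those of the flox control, with a difference of -1.08 ± 0.22 (limma adjusted p = 0.251) and overlapped the Cre control, which was itself -0.77 ± 0.24 from the flox control (adjusted p = 0.182). Il33 and Il1f10 differed from both controls by -0.06 and 0.06. Of the 6 receptors and binding proteins measured, 3 were above the filter. Il18bp, which encodes a secreted protein that traps IL-18, was at 11.34, 11.05 and 11.05 in flox pools, at 10.74, 10.37 and 11.23 in cKO pools and at 11.54 and 11.60 in Cre pools. The cKO was -0.79 ± 0.22 from the Cre control (adjusted p = 0.214) and overlapped the flox control. Il18r1, the ligand-binding chain of the IL-18 receptor, differed from both controls by -0.14 and Il1rl2, the IL-36 receptor, by -0.02.

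The 22 IL-1 receptor signalling genes were all above the filter. In the cKO against both controls 7 were higher and 15 lower, beside 46.4% lower among all genes tested, with a median of -0.05 beside 0.01. After limma's adjustment 0 passed, and an unadjusted p under 0.05 was reached by 7 (5 lower and 2 higher), beside 9.52% of all probe sets tested. All 3 cKO arrays lay below all 5 controls for 5 of the 22, beside 2.25% of all probe sets tested. The list was chosen with earlier results known, so these counts are a description. Irak3, an inhibitory IRAK kinase, was at 12.28, 12.16 and 12.52 in flox pools, at 11.83, 11.77 and 12.12 in cKO pools and at 12.40 and 12.19 in Cre pools. The cKO arrays were the 3 lowest, with a difference of -0.40 ± 0.13 (adjusted p = 0.389). Nfkbiz, which encodes a nuclear IkB protein induced by IL-1, also had its 3 lowest arrays in the cKO (12.19, 12.39 and 12.44 against 12.48 to 13.01 in the controls) and a difference of -0.35 ± 0.13 (adjusted p = 0.435). Tollip, an adaptor that restrains IRAK1, was highest in the 3 cKO arrays (8.22, 8.54 and 8.14 against 7.83 to 8.06) with a difference of 0.38 ± 0.12 (adjusted p = 0.389). Map3k8, the kinase TPL2 that activates ERK, was named after its values were seen. Its arrays were at 11.47, 10.88 and 11.78 in cKO pools against 11.83 to 12.16 in the controls, a difference of -0.58 ± 0.19 (adjusted p = 0.403). Ikbkg, the regulatory subunit of the IkB kinase, differed by 0.52 ± 0.17 with overlapping arrays (adjusted p = 0.398).

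**Figure D4:**
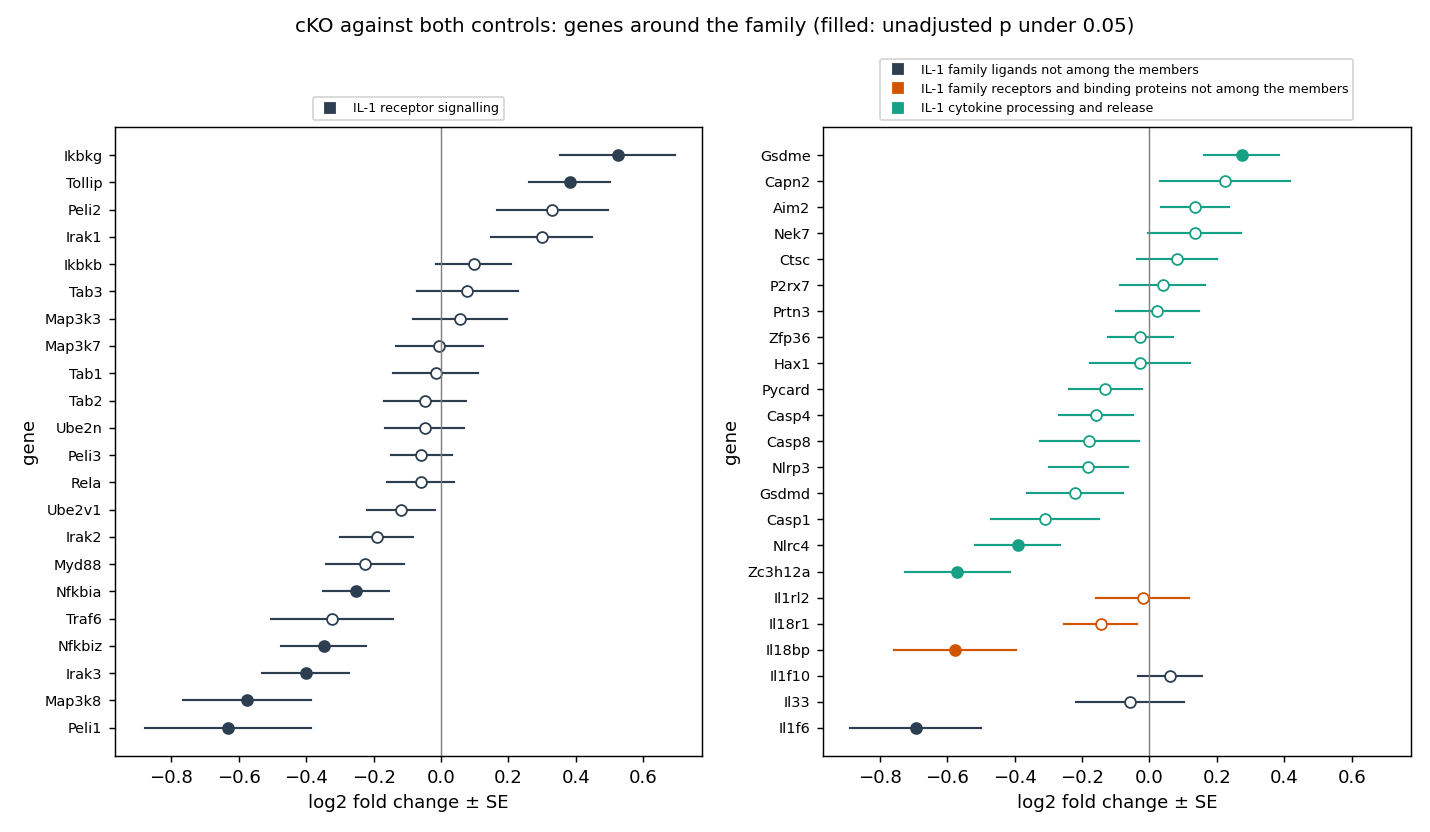
Log2 fold change ± SE of the genes around the family in the cKO against both controls, in 4 lists, with filled points for an unadjusted p under 0.05. In the signalling list 15 of 22 genes lie below 0 and 7 above.

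Of 19 genes for processing and release of the cytokines 17 were above the filter, of which 7 were higher and 10 lower in the cKO against both controls, with a median of -0.03, beside the same 46.4% lower for all genes. After limma's adjustment 0 passed, and 3 had an unadjusted p under 0.05, beside 9.52%. All 3 cKO arrays lay below all 5 controls for 1 of the 17, beside 2.25%. Zc3h12a, the ribonuclease regnase-1 that degrades cytokine transcripts, was at 11.26, 11.23 and 11.25 in flox pools, at 10.58, 10.14 and 10.88 in cKO pools and at 11.04 and 10.89 in Cre pools. The cKO arrays were the 3 lowest and lay -0.71 ± 0.17 from the flox control (adjusted p = 0.348). Nlrc4, an inflammasome gene, differed from both controls by -0.39 ± 0.13 (limma adjusted p = 0.390). Gsdme, a gasdermin cut by caspase-3, changed between the controls: the Cre control lay -0.95 ± 0.14 from the flox control (adjusted p = 0.025), a call that was lost without either Cre control array. Gsdme was at 6.88 and 6.99 in Cre pools and at 7.54 to 7.76 in cKO pools. Aim2, a DNA sensor, was 0.44 ± 0.13 higher in the Cre control than in the flox control (adjusted p = 0.147). Casp1, the enzyme that cuts the IL-1 beta precursor, and Nlrp3, an inflammasome sensor, were named after their values were seen, and differed from both controls by -0.31 ± 0.16 and -0.18 ± 0.12. Il1f5, Il1f8, Il1rapl1, Il1rapl2, Sigirr, Ctsg and Elane were not above the filter.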

How the data were processed

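Affymetrix Mouse Gene 2.0 ST arrays of 8 pools were read from the series' table of deposited log2 intensities. Per the labels and design text, the authors subtracted background and normalized with Robust Multiarray Analysis (RMA) in Expression Console. The labels and the design text name different RNA and labelling kits, so the kit is not settled. Of the probe sets, 9137 had no gene symbol and 1814 several, and were left out. Gene names came from the platform annotation, which can be old.

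limma 3.58.1 in R 4.3.3 was fitted to the 3 groups, on 14002 probe sets above 5.45 in at least 2 arrays, with 4 contrasts and Benjamini-Hochberg adjustment over all of them. The fit was tested on simulated data, with changes larger than any difference of a family probe set from both controls. Smaller changes were not simulated. For list genes the brightest probe set was used. Every family member was named, and of each wider list up to 4 genes with the smallest unadjusted p in any of the 4 comparisons. The members and lists were chosen with earlier results of these data known. No batch is given in the sources used here. Alternatives covered the filter, scaling, variance model, array weights, groups fitted and arrays left out, and the number of arrays limits the precision.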

Additional observations from a re-analysis of the deposited data

How the results depend on the processing

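No family probe set passed the adjusted threshold in any of the 19 settings, and the lowest adjusted p of any was 0.106 (limma). Of 776 recomputed differences 46 changed sign, 4 of them by more than 1 SE. Over 18 alternatives Il1a differed from both controls by -0.45 (without Arf6 cKO replicate 3) to -0.27, with limma adjusted p from 0.156 to 0.962. The -0.27 came from leaving out flox control 1 and cKO 1, which stand apart in sex-linked transcripts. Without cKO 1 alone the difference was also -0.27, and without flox control 1 alone it was -0.36. Of the 4 larger sign changes 3 came from leaving out 1 array, which put Il1r1 between -0.40 and 0.063 in cKO against Cre control, and between -0.10 and 0.36 between the controls, with the sign turned without Cre control replicate 1. It put Il1rap probe set 17324542 between -0.41 and 0.41 in cKO against flox control, turned without flox control replicate 3. Il1rap probe set 17324522 was at -0.084 in that comparison without the pools that stand apart in sex-linked transcripts. The cause was not tested. The counts of all probe sets past the threshold were 1 (cKO and both controls), 6 (cKO and flox control), 10 (cKO and Cre control) and 68 (Cre control and flox control). In that order they were 13, 12, 145 and 819 with array weights, and 0, 0, 4 and 24 without those 2 pools. Fitting the compared groups alone gave 0, 5 and 131 in the last 3 comparisons. With 1 probe set per gene 3 passed in cKO and flox control, and without the filter 5 in cKO and Cre control. Leaving out 1 array gave 0 to 31, 0 to 11, 0 to 67 and 0 to 235. For the family probe sets, treating both controls as 1 group was added after the data were seen. No paired analysis was possible because the sample numbers run on over the groups and pair nothing. The number of pools limits what can pass over all probe sets.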
